A study of Mus musculus with 8 samples.

Results

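Splenic T cells of Gfi1-knockout C57Bl/6 mice were compared with those of wild-type C57Bl/6 mice before any stimulation, on 1 Affymetrix MOE430A_2.0 array each, 2 of the 8 arrays of a time course. Both 0 h samples are labelled as untreated controls, and each carries a source number of its own whose meaning is not given. The other 6 arrays cover 4, 8 and 24 h with antibodies against CD3 and CD28 at 2 µg/ml, again 1 per genotype and time. Each of them carries the same source number as the 0 h array of its genotype. For both genotypes, T cells were enriched from splenocytes by magnetic sorting (pan-T kit, AutoMACS). The labels used here do not give the Gfi1 allele, the age or sex of the mice, or how many mice made up a sample. With 1 array on each side the differences have no replicate check, so sizes are given and no p-value.

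Gfi1 is a zinc finger transcriptional repressor that recruits histone demethylases and deacetylases to its target genes. In the bone marrow it is required for neutrophil maturation, where it holds back monocyte genes and antagonises the myeloid factor PU.1. In T cells it is expressed from the thymus onwards and is known for roles in thymocyte survival, in T cell proliferation and in the response to antigen receptor signals.

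Among the largest differences were those of enzymes stored in the primary granules of neutrophil precursors, so the promoters of 4 of these genes are shown. They are RefSeq windows of GRCm38.p6, 250 bases before to 50 after the annotated start, read 5′ to 3′ on the gene's strand. Elane lies at chr10:79886062-79886361 (plus strand), Prtn3 at chr10:79879417-79879716 (plus), Ctsg at chr14:56102525-56102824 (minus) and Mpo at chr11:87793534-87793833 (plus). Capitals mark the core of the PU.1 motif, GAGGAA, and the core of the Gfi1 motif, AATC, each on either strand.
Elane: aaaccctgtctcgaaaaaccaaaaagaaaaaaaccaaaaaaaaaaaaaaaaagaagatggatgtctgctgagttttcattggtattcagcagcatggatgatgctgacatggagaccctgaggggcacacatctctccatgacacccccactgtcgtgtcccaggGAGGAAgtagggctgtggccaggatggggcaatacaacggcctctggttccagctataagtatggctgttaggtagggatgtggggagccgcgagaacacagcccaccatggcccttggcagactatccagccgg
Prtn3: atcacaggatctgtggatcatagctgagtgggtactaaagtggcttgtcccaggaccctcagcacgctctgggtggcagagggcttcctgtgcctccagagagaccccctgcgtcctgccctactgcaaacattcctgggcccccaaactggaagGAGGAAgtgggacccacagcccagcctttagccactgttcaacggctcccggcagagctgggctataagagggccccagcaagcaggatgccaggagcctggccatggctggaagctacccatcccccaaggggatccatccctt
Ctsg: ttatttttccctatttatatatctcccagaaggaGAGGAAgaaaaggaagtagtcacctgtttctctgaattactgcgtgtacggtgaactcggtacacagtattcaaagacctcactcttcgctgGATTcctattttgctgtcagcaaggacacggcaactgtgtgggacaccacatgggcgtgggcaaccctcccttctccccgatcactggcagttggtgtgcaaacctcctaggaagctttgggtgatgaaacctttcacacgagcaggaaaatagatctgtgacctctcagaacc
Mpo: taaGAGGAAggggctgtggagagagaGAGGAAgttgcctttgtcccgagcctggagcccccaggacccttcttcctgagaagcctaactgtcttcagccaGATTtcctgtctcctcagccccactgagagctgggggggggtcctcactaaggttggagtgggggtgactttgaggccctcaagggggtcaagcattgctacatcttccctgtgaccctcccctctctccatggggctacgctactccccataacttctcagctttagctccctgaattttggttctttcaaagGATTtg

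The list of primary granule genes, described below, had 7 genes in the RefSeq table. The PU.1 core was found in 6 of their 8 promoter windows, against 28.3% of all 32851 windows. It was found in 7 of 14 windows of 11 T cell identity genes. The Gfi1 core was found in 5 of the 8 granule gene windows and in 73.1% of all windows, and the windows of Elane and Prtn3 hold none. A match of letters describes the window and not binding. The granule list was chosen with earlier results of these data known, and the difference between these shares was not tested.

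The arrays held 22690 probe sets. Signals under a floor of 142 were set to the floor, and a difference against a floored signal is a lower bound, written here as "at least". A list median can rest on floored signals of either array, and not every such median is marked. Of the 15062 probe sets that exceeded the floor on 2 or more of the 8 arrays, 1126 (7.48%) were at least 2-fold higher in knockout cells and 1055 (7%) at least 2-fold lower. By gene, with 1 probe set each, 683 of 8457 (8.08%) were at least 2-fold higher and 571 (6.75%) at least 2-fold lower, and the median log2 difference was 0.00. The sizes were uneven: 137 genes were at least 4-fold higher and 44 at least 4-fold lower, and at 8-fold the counts were 39 and 1. "Higher" and "lower" with a count below mean at least 2-fold, in knockout over wild type. A list count near the share of all genes, 8.08% higher or 6.75% lower, does not set that list apart.

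The 2 arrays had similar median signals, 305 in knockout and 301 in wild type, with 59.96% of probe sets above the floor in knockout and 60.58% in wild type. The 3′ to 5′ ratio of the Gapdh control was 0.788 in knockout and 0.728 in wild type, and that of the beta-actin control 1.13 in knockout and 1.11 in wild type. The 18S rRNA control differed, with a signal of 947.5 on the knockout array and 26481 on the wild-type array. The hybridisation controls, added in equal amount in the standard protocol, had a median log2 difference of -0.37 (18 probe sets, -0.60 to -0.06). The bacterial spike controls had a median of -0.84 (27 probe sets, -1.99 to -0.41), with lys at -1.87. Dividing each array by the hybridisation controls, a choice made after seeing the data, moved the median of all probe sets by 0.28 and gave 2227 higher and 464 lower, so that 82.8% of the calls were higher, against 51.6% as deposited. Where a gene had several tested probe sets, 2 of them differed by a median of 0.298 on the log2 scale over 3378 genes, and 95% of these gaps were under 1.08. Most of these genes were not called. For the 494 called by the probe set of higher signal, the second had the same sign in 450 (91.1%). The second also passed 2-fold in the same direction in 242 (49.0%), so about as many calls were not shared as were. Calls were most frequent in the fifth of probe sets with a mean signal of 244 to 548, where 12.6% were higher and 9.96% lower.

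Gfi1 itself had a signal of 2316 on the array labelled knockout and 882 on that labelled wild type, a log2 difference of 1.39. A single probe set measured it, and whether it lies inside or outside the deletion is not known here, so the signal checks neither label.

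**Figure D1:**
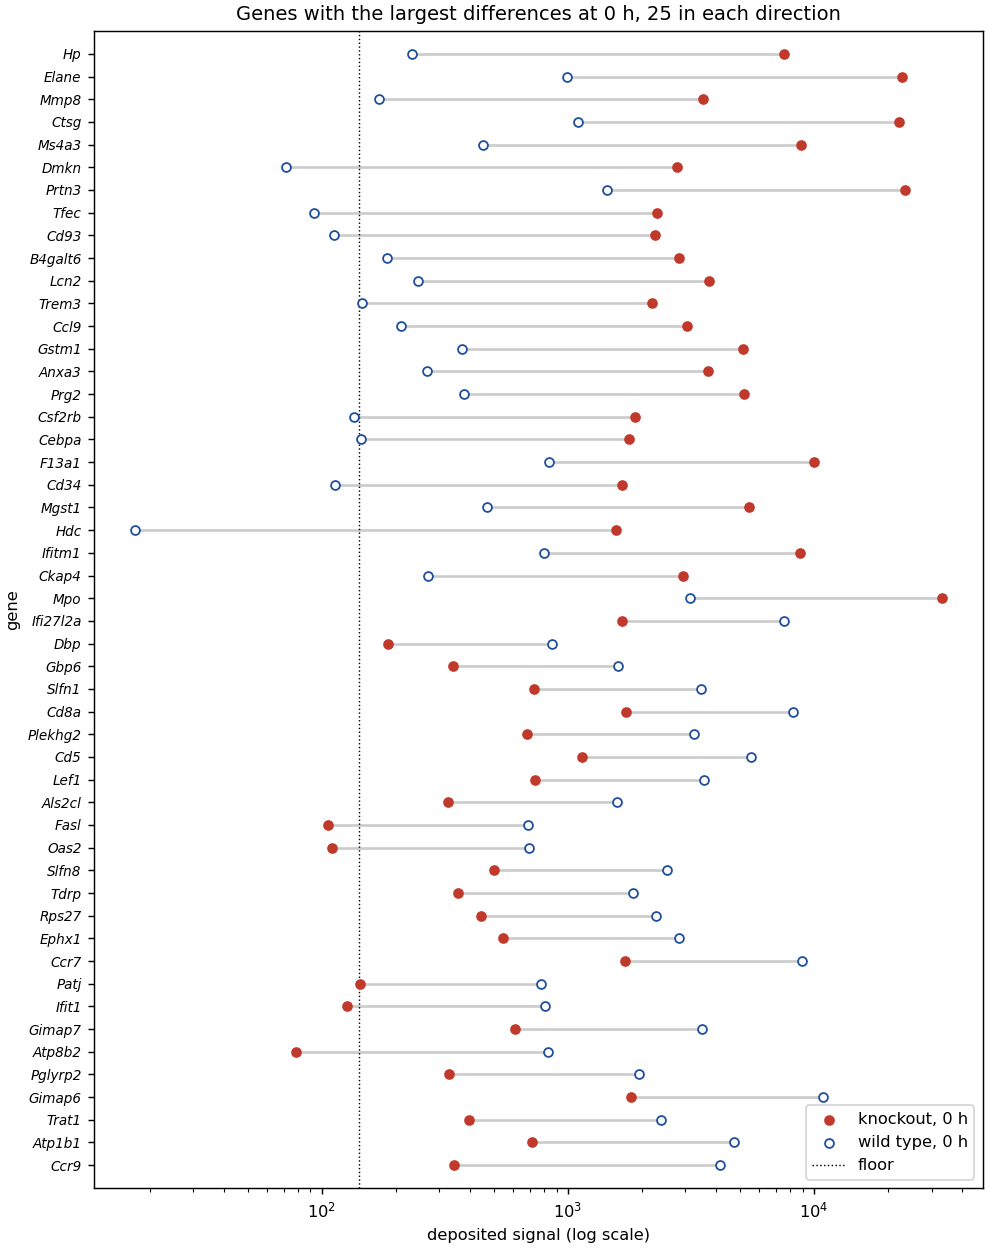
Deposited signal (log axis) of the 25 genes with the largest differences in each direction at 0 h; filled points are the knockout array, open points the wild-type array, and the dotted line is the floor of 142. Hp (7565 in knockout, 233 in wild type) leads the upper part, followed by Elane (22691 in knockout, 988 in wild type), and Ccr9 (345 in knockout cells, against 4131 in wild-type cells) ends the lower.

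Primary (azurophil) granules are made at the promyelocyte stage. The list of primary granule genes also holds other genes of neutrophil precursors, such as Ms4a3 and Igsf6, and was chosen with earlier results known. All 8 tested were higher in knockout cells, with a median log2 difference of 3.91 and a range of 3.03 to 4.52. For Gstm1, a glutathione transferase on this list with 5143 in knockout and 371 in wild type, the 4 probe sets spanned 0.45 to 4.49. Elane, neutrophil elastase, had a signal of 22691 in knockout cells and 988 in wild-type cells, 22.97-fold higher. Ctsg, cathepsin G, had 22212 in knockout and 1104 in wild type, and Prtn3, proteinase 3, had 23387 in knockout cells, against 1438 in wild-type cells. Each of these serine proteases was thus more than 16-fold higher in the knockout sample. Mpo, myeloperoxidase, had 33134 in knockout cells and 3142 in wild-type cells, 10.5-fold higher. The wild-type signals lay well above the floor too, so these transcripts were measured in both samples. Ms4a3, a membrane protein of granulocyte precursors, had 8837 in knockout and 450.3 in wild type, and Serpinb1a, an inhibitor of these proteases, had 4850.2 in knockout and 595 in wild type. The summed signal of the 8 genes was 121868 in knockout cells and 8273 in wild-type cells.

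In a bulk sample of this kind, fewer cells of a type and less RNA per cell cannot be told apart, and likewise for more. The part of non-T cells in the differences below was not tested.

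The genes of later neutrophil stages were split. Of 12 tested, 6 were higher and none lower, with a median of 0.89 that became 1.91 when each array was divided by its median and 0.42 with a floor at the 20th percentile. Mmp8, neutrophil collagenase, had 3526 in knockout cells and 171 in wild-type cells, and Lcn2, the siderophore-binding lipocalin of specific granules, had 3742 in knockout cells, against 247 in wild-type cells. S100a8, a calcium-binding protein abundant in neutrophil cytoplasm, had 19556 in knockout and 3868 in wild type, 5.06-fold higher. Chil3, a chitinase-like protein of these granules, was 6.66-fold higher, but 3 other secondary granule genes were not higher. Ltf, lactoferrin, had 152 in knockout and 230.1 in wild type, Camp, cathelicidin, had 244 in knockout cells, against 358 in wild-type cells, and Ngp had 579.7 in knockout and 842 in wild type, which are log2 differences of -0.60, -0.56 and -0.54, with Ltf close to the floor. Hp, haptoglobin, which granulocytes also make, had the largest difference of all genes, with 7565 in knockout cells and 233 in wild-type cells, 32.5-fold higher.

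Eosinophil, basophil and mast cell genes were higher in 5 of 12, with none lower and a median of 0.76. Prg2, the eosinophil major basic protein, had 5201 in knockout cells and 377 in wild-type cells. Epx, eosinophil peroxidase, had 1017 in knockout cells and was under the floor in wild-type cells, at least 7.17-fold higher. Hdc, the enzyme that makes histamine, had 1571 against a floored wild-type signal, at least 11.1-fold higher. Cpa3, a mast cell carboxypeptidase, had 1076 in knockout and 178 in wild type, and Mcpt8, a basophil protease, had 832 in knockout cells, against 178 in wild-type cells. Kit, the stem cell factor receptor, had 2087 in knockout and 1184 in wild type, and stayed under 2-fold.

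Monocyte and macrophage genes were higher in 15 of 22, with none lower, 21 above 0 and a median of 1.95. Their summed signal was 82767 in knockout cells and 24323 in wild-type cells. F13a1, the coagulation factor XIII A chain of monocytes, had 9949.7 in knockout cells and 835 in wild-type cells, and Fcgr3, an activating IgG receptor, had 4888 in knockout and 483 in wild type. Both were about 10-fold or more higher. Lyz2, lysozyme, had 13610.2 in knockout cells, against 2114 in wild-type cells, and Fcer1g and Tyrobp, the signalling adaptors of Fc and other myeloid receptors, were 6.20-fold and 5.11-fold higher. Ccr2, the receptor that brings monocytes out of the marrow, had 4873 in knockout and 1043 in wild type. Csf1r, the M-CSF receptor, had 5719 in knockout and 2245 in wild type, and its 3 probe sets spanned 1.35 to 2.60. Markers of mature macrophages were among those that did not pass 2-fold. Adgre1, which encodes F4/80, had 289.5 in knockout cells and 455 in wild-type cells, and Ctss, cathepsin S, had 8156 in knockout cells, against 8112 in wild-type cells.

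Splenic tissue macrophage genes contrasted with this: 0 of 10 passed 2-fold either way, with a median of 0.39. C1qb, a chain of the complement component C1q, had 375 in knockout cells and 492 in wild-type cells, and Slc40a1, the iron exporter ferroportin, had 1656 in knockout and 1435 in wild type. Dendritic cell genes had a median of -0.61, with 2 of 11 lower and none higher, and the 2 were Ccr9 and Ccr7, which T cells express as well. Lysosome and phagosome oxidase genes followed the monocyte direction in part, with 10 of 24 higher, none lower and a median of 0.88. Ncf1, a cytosolic subunit of the phagocyte NADPH oxidase, had 1646 in knockout and 387 in wild type, and Cybb, its catalytic membrane subunit, had 1194 in knockout cells, against 306 in wild-type cells. Ctsz, a lysosomal cysteine protease, had 15213 in knockout cells and 4527 in wild-type cells.

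The transcription factors that direct myeloid differentiation were higher in 8 of 13 and lower in 2, with a median of 1.87. Spi1, which encodes PU.1, the factor whose core is marked in the promoters above, had 2539.7 in knockout cells and 357 in wild-type cells, 7.11-fold higher. Cebpa, the factor that commits progenitors to the granulocyte and monocyte lineages, had 1772 in knockout and 145 in wild type, 12.2-fold higher. Cebpd had 1403 in knockout and 178 in wild type, Cebpb had 5270.2 in knockout cells, against 949.8 in wild-type cells, and Klf4, a monocyte factor, had 2627 in knockout and 588 in wild type. Irf8, which favours monocyte over neutrophil fate, had 4729 in knockout and 1161 in wild type, a difference of 2.03 that was not seen in the later pairs (-0.51, -0.49 and -0.40 at 4, 8 and 24 h). The 2 lower ones were Egr2, with 246 in knockout cells, against 668 in wild-type cells, and Runx1, with 718 in knockout and 1444 in wild type, and both have other probe sets nearer to 0, up to -0.25 and -0.11.

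Stem and progenitor genes were higher in 5 of 14, with none lower and a median of 0.64. Cd34, the progenitor surface sialomucin, had 1666 in knockout cells and was under the floor in wild-type cells, at least 11.7-fold higher. Hoxa9, a homeobox factor of immature myeloid cells, had 1523 in knockout and 290.3 in wild type, although its other probe set gave 0.37. Lmo2, a bridging protein of haematopoietic factor complexes, had 6166 in knockout cells, against 2193 in wild-type cells. Myb, which is needed by progenitors and by developing T cells, had 13114 in knockout and 8776 in wild type, a difference of 0.58.

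Known or proposed Gfi1 target genes went both ways: 9 of 31 were higher and 8 lower, with a median of 0.25. The higher include Gfi1 itself, and genes on both sides are also counted in other lists, among them Spi1, Cebpa, Il7r and S1pr1. Elane, already given, and Id1, an inhibitor of E proteins with 506 in knockout cells and a floored signal in wild-type cells, were among the higher. Id3, another such inhibitor, was among the lower, with 311 in knockout and 1375 in wild type, 4.42-fold. Id2 had 4444 in knockout cells, against 7799 in wild-type cells, a difference of -0.81. Il7r, the interleukin-7 receptor chain, had 6581 in knockout cells and 17192 in wild-type cells, and Bcl2l11, the pro-apoptotic Bim, had 2428 in knockout and 5788 in wild type. Of 13 Gfi1 corepressors and partners, only Gfi1 itself passed 2-fold (7.69%, against 8.08% of all genes higher), and the median was 0.58. Cbfa2t3, a corepressor of the ETO family, was at 0.79 and Hdac2, a histone deacetylase, at 0.61. Gfi1b, its paralogue, had 1967 in knockout and 1240.3 in wild type, Kdm1a, the histone demethylase LSD1, had 2538 in knockout cells, against 3004 in wild-type cells, and Rcor1, CoREST, had 2508 in knockout and 2796 in wild type.

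T cell identity genes were lower in knockout cells. Of 16 tested, 14 were at least 2-fold lower, all 16 were below 0, and the median was -1.68. Their summed signal was 35111 in knockout cells and 105075 in wild-type cells. Cd3d, a CD3 chain that signals for the antigen receptor, had 7145 in knockout and 22779.7 in wild type, and Cd3g had 3689 in knockout cells, against 11929.5 in wild-type cells, 3.19-fold and 3.23-fold lower. Cd3e was nearer, with 2583 in knockout and 4011 in wild type, and with Thy1 (4085 in knockout and 7530.5 in wild type) made up the 2 under 2-fold. Cd5, which dampens T cell receptor signals, had 1144 in knockout cells and 5554 in wild-type cells, and Cd2, an adhesion receptor, had 1713 in knockout cells, against 7792 in wild-type cells. Cd28, the costimulatory receptor that the later antibody treatment engages, had 1504 in knockout and 6607 in wild type. Trat1, a transmembrane adaptor of the receptor complex, had 395 in knockout and 2389 in wild type, the largest difference of the list at 6.05-fold. The defining T cell genes were thus above the floor in both samples, beside the granulocyte and monocyte signals given above.

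Both T cell lineages shared the direction. Of the 5 CD8 lineage genes 3 were lower. Cd8a had 1715 in knockout cells and 8172 in wild-type cells, and Cd8b1 had 2676 in knockout cells, against 10916 in wild-type cells, 4.76-fold and 4.08-fold lower. Of the 4 CD4 lineage genes 2 were lower, and Cd4 itself had 636 in knockout and 2195 in wild type, 3.45-fold lower.

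Genes of naive and resting T cells were lower in 17 of 23 and higher in none, with a median of -1.20. That median was under 2-fold, at -0.84, with hybridisation control scaling. Ccr7, the receptor that brings naive cells into lymph nodes, had 1707 in knockout cells and 8907 in wild-type cells. Lef1, a Wnt pathway factor of naive cells, had 738 in knockout and 3581 in wild type, Bach2, a repressor of effector programmes, had 814 in knockout cells, against 3128 in wild-type cells, and Foxo1, a quiescence factor, had 912 in knockout and 3443 in wild type. All were 3.77-fold lower or more. S1pr1, needed to leave lymphoid organs, had 1062 in knockout and 3356 in wild type, while Klf2, which drives its expression, had 4451 in knockout cells, against 7773 in wild-type cells and stayed under 2-fold. Above 0 stood Igfbp4, with 13359 in knockout and 8638 in wild type, and Ramp1, with 3316 in knockout and 1992 in wild type.

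Ccr9, the gut-homing receptor of thymocytes and some T cells and plasmacytoid dendritic cells, had 345 in knockout cells and 4131 in wild-type cells, 11.96-fold lower and the largest difference in that direction, while its other probe set gave -2.28. The Gimap genes, GTPases that support lymphocyte survival, were looked up after their values were seen, and all 5 tested were lower, with a median of -1.98. Gimap6 had 1809 in knockout cells, against 10909 in wild-type cells, and Gimap4 had 6531 in knockout and 22511 in wild type. Of the 5 Schlafen genes, also looked up afterwards, 3 were lower. Slfn1 had 731 in knockout and 3474 in wild type, and Slfn2, which keeps T cells quiescent in mice, had 3708 in knockout cells, against 9938 in wild-type cells. Atp1b1, a sodium pump subunit, had 717 in knockout and 4732 in wild type, but its 5 probe sets ranged from -2.72 to 0.00. The value for Rps27, 445 in knockout and 2288 in wild type, stood apart from those of the other ribosomal protein genes.

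**Figure D2:**
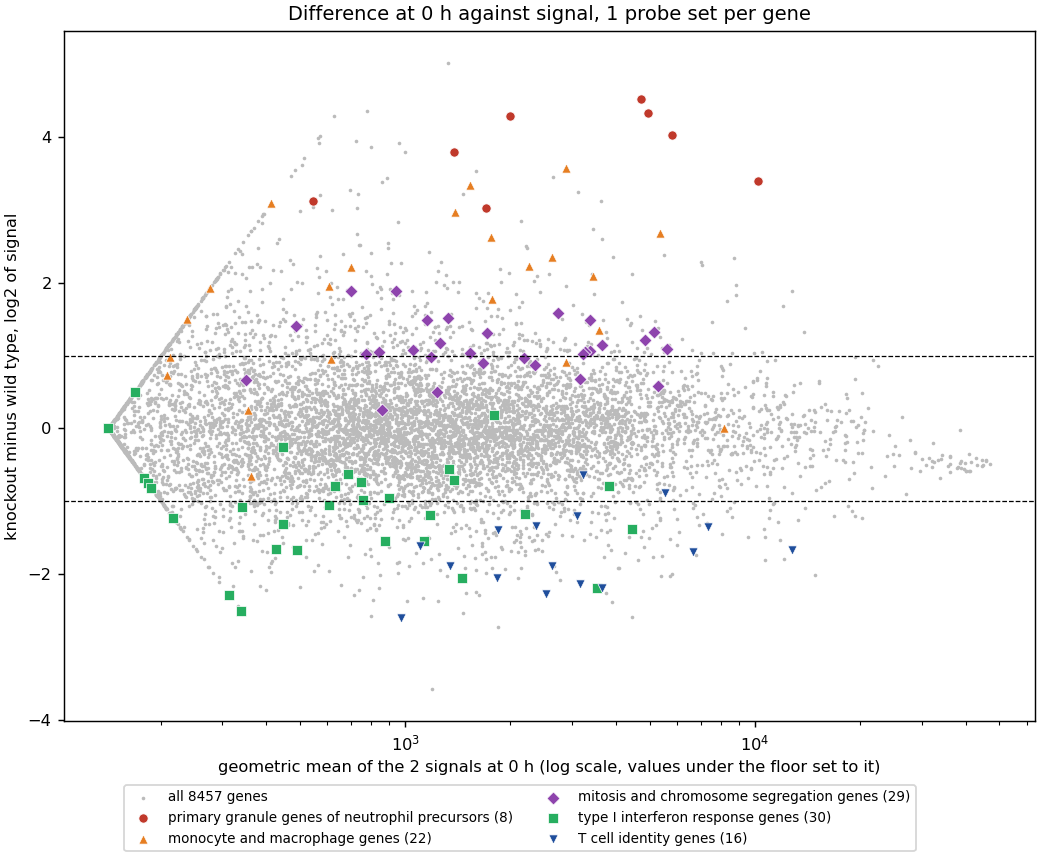
Log2 difference, knockout minus wild type, against the geometric mean of both signals (log axis) for 8457 genes at 0 h, with 5 lists coloured and dashed lines at 2-fold. Primary granule genes lie between 3.03 and 4.52 over a wide range of signals, and T cell identity genes between -2.60 and -0.63.

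The 25 largest positive differences held further genes outside the lists above. Csf2rb, the shared receptor chain for GM-CSF, interleukin-3 and interleukin-5, had 1866 in knockout cells and a floored signal in wild-type cells, at least 13.1-fold higher. Cd93, a receptor of progenitors and myeloid cells, had 2249 against a floored signal, at least 15.9-fold higher. Trem3, an activating receptor of mouse myeloid cells, had 2203 in knockout cells, against 146 in wild-type cells, and Tfec, a macrophage factor of the MiT family, had 2304 against a floored signal. Mgst1, a microsomal glutathione transferase, had 5445 in knockout and 469 in wild type, and Anxa3, an annexin of neutrophils, had 3714 in knockout and 268 in wild type. Dmkn, dermokine, had 2768 against a floored signal, at least 19.5-fold higher, B4galt6, a glycosphingolipid galactosyltransferase, had 2838 in knockout cells, against 184 in wild-type cells, and Ifitm1, an interferon-induced membrane protein, had 8735 in knockout and 801 in wild type. Ckap4, a membrane protein of the endoplasmic reticulum, had 2931 in knockout and 270.5 in wild type.

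Memory and effector T cell genes had a median of 0.15, with 6 of 22 higher and 1 lower (4.55%, against 6.75% of all genes). The higher ones were Anxa1 (9655 in knockout cells, 1013 in wild-type cells), Lgals3 (7141 in knockout cells, against 1666 in wild-type cells), S100a6 (5470.1 in knockout and 1984 in wild type), S100a4 (7317 in knockout and 2684 in wild type), Vim (21829.7 in knockout cells, against 8728 in wild-type cells) and Anxa2, at 1.42 on the log2 scale. These calcium-binding, cytoskeletal and lectin genes are also expressed by monocytes and macrophages. The lower one was Cxcr3, a chemokine receptor of effector and memory T cells, with 1263 in knockout and 3472 in wild type. Ccl5, a chemokine stored by memory CD8 cells, had 7043 in knockout and 7116 in wild type.

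Cytotoxic granule genes did not move as a group, with 3 of 13 higher, 3 lower and a median of 0.00. Gzmb, granzyme B, had 1194 in knockout cells and 426 in wild-type cells. Prf1, perforin, had 499.5 in knockout cells, against 1172 in wild-type cells, and Ctsw, a cathepsin of cytotoxic lymphocytes, had 1693 in knockout and 4653 in wild type. Fasl, the death ligand, was under the floor in knockout cells and had 689.7 in wild-type cells, at least 4.86-fold lower. Natural killer cell genes had 2 of 10 higher and 2 lower, with a median of -0.06. Klrd1, the CD94 receptor chain, had 2942 in knockout and 7789.7 in wild type. The 2 higher were Fcgr3 and Tyrobp, which the monocyte list also holds.

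Regulatory T cell genes were lower in 3 of 16 and higher in none, with a median of -0.65. Foxp3, their master regulator, was under the floor in knockout cells and had 229 in wild-type cells. Gpr83 had 177 in knockout cells, against 624 in wild-type cells, Izumo1r, the folate receptor 4, had 803 in knockout and 2712 in wild type, and Tnfrsf18, GITR, had 825 in knockout and 1853 in wild type.

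B cell genes had a median of -0.03, with 3 of 15 higher and 3 lower. The lower were Ms4a1, which encodes CD20 (396 in knockout cells, 1799.5 in wild-type cells), Spib (153 in knockout cells, against 684 in wild-type cells) and Cd72 (395 in knockout and 1051 in wild type). The higher were Ly86 (3430.4 in knockout and 1261 in wild type), Blk (1562 in knockout cells, against 622 in wild-type cells) and Btk (1178 in knockout and 584 in wild type). Cd79a, a chain of the B cell receptor, had 749 in knockout and 753 in wild type. Immunoglobulin and plasma cell genes leaned higher, with 5 of 12 higher, none lower and a median of 0.86. Slpi, a protease inhibitor that is also made by myeloid cells, had 10677 in knockout cells and 1228 in wild-type cells. Iglv1 had 21507 in knockout cells, against 6710.1 in wild-type cells, and Xbp1, a factor of antibody-secreting cells, had 12324 in knockout and 6003 in wild type. Jchain, which joins IgA and IgM, had 24441 in knockout and 15207 in wild type. Of 10 immunoglobulin kappa variable segments looked up afterwards, 7 were higher and none lower, with a median of 2.27. Variable segments share sequence, so their probe sets may read each other's transcripts.

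Erythroid genes had 4 of 23 higher and none lower, with a median of 0.43. Car1 and Car2, carbonic anhydrases of red cell precursors, had signals of 14165 and 14788 in knockout cells, against 13575 and 12968 in wild-type cells. The 4 higher were Nfe2, Rhag, Slc4a1 and Add2. Nfe2, a factor of erythroid and megakaryocyte cells that myeloid cells share, had 2698 in knockout cells, against 739.5 in wild-type cells. Add2, at 1.28, turned to -0.64 with a lower floor. Platelet genes had 1 of 7 higher and 1 lower, and Pf4 had 288 in knockout and 467 in wild type. The 6 stromal and endothelial genes had none past 2-fold, with 4 of them at the floor on each array.

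Genes of mitosis and chromosome segregation were higher in 20 of 29 and lower in none, with all 29 above 0 and a median of 1.06. Aurkb, a kinase of the chromosome passenger complex, had 1812 in knockout cells and 488 in wild-type cells, and Kif20a, a motor of cytokinesis, had 1342 in knockout and 364 in wild type. Cdk1, the mitotic kinase, had 4730.4 in knockout cells, against 1583 in wild-type cells, 2.99-fold higher. Top2a and Mki67, markers of cycling cells, were 2.32-fold and 2.12-fold higher. The list ranged from 0.25 for Cenpe, a kinetochore motor, to 1.89 for Aurkb.

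DNA replication and nucleotide supply genes were higher in 14 of 38 and lower in none, with a median of 0.78. Ccne2, a cyclin of S phase entry, had 1581 in knockout and 458 in wild type. Rrm2, a subunit of ribonucleotide reductase, had 6718 in knockout and 2942 in wild type, and Lig1, DNA ligase 1, had 3420.5 in knockout cells, against 1260.4 in wild-type cells. Pcna, the replication clamp, had 20345 in knockout and 20694 in wild type, so its transcript did not share the difference. Ccnd2, the D cyclin that lymphocytes use in G1, had 3428 in knockout and 10394 in wild type, 3.03-fold lower.

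Type I interferon response genes were lower in 15 of 30 and higher in none, with 27 below 0 and a median of -1.02. The list does not hold Ifitm1, the interferon-induced gene given above, which was 10.9-fold higher in knockout cells. That median was under 2-fold with hybridisation control scaling (-0.68), a floor at the 60th percentile (-0.73), signal plus floor (-0.83) and the median over probe sets (-0.92). Ifit1 and Oas2, antiviral effectors, were under the floor in knockout cells and had 809 and 694 in wild-type cells, at least 5.70-fold and at least 4.89-fold lower. Ifi27l2a had 1655 in knockout cells, against 7578 in wild-type cells, and Rtp4 had 716 in knockout and 2958 in wild type, though a further Rtp4 probe set gave 0.00. Irf7, which amplifies the response, had 481 in knockout and 829 in wild type. In all, 7 of the 30 genes were at the floor in knockout cells and 2 in wild-type cells. Interferon-inducible GTPases, which act on intracellular pathogens, were lower in 7 of 9, with a median of -1.33 that became -0.97 with hybridisation control scaling. Gbp6 had 343 in knockout cells, against 1592 in wild-type cells, and Igtp had 2043 in knockout and 5595 in wild type. The exception was Gbp3, with 1231 in knockout cells and 600.3 in wild-type cells.

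Antigen presentation genes leaned the same way. MHC class I peptide supply genes had 2 of 15 lower, H2-M3 and Tap1 (13.3%, against 6.75% of all genes). Of the list 1 was higher (6.67%, against 8.08%) and 12 lay within 2-fold, with a median of -0.52. The class I median became -0.15 with hybridisation control scaling. H2-K1, a class I heavy chain, had 19689 in knockout and 36882 in wild type, and B2m, the class I light chain, had 26727 in knockout cells, against 38670.4 in wild-type cells. Both are among the 47 genes with a mean signal over 25000, of which 46 were below 0. Tap1, a subunit of the peptide transporter, had 1674 in knockout and 3372 in wild type, and Calr, a chaperone of class I loading, was the higher one, with 15057 in knockout and 7290.5 in wild type. MHC class II genes, which B cells and other antigen-presenting cells express, were lower in 5 of 10 and higher in 1, with a median of -0.79. H2-Aa had 3165 in knockout cells, against 8185 in wild-type cells, H2-Eb1 had 1804 in knockout and 5017 in wild type, and Cd74, the invariant chain, had 7799 in knockout and 9796 in wild type.

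Immediate early and AP-1 genes had a median of -0.21, with 8 of 28 lower and 1 higher. The higher one was Fosb, with 1095 in knockout cells and 143 in wild-type cells, and it was not higher in any later pair (-0.48, -1.19 and 0.00). Fos had 15294 in knockout cells, against 14366 in wild-type cells, Jun had 4050.5 in knockout and 3569 in wild type, and Egr1 had 3203 in knockout and 2611 in wild type. Dusp2, a phosphatase that acts on MAP kinases, had 1362 in knockout cells, against 5318 in wild-type cells, and Nr4a1, a nuclear receptor induced by T cell receptor signals, had 1056 in knockout and 2569.9 in wild type. NF-kB subunits, inhibitors and survival genes were lower in 6 of 15 and higher in none, with a median of -0.80. Tnfaip3, the A20 inhibitor of the pathway, had 1071 in knockout and 3317 in wild type, Birc3 had 1349.8 in knockout cells, against 3802 in wild-type cells, and Nfkbia, the inhibitor IkBa, had 12752 in knockout and 27986 in wild type, with its 4 probe sets from -1.13 to 0.05.

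Many cytokine genes were at the floor at this time: 15 of 26 in knockout cells and 12 in wild-type cells, with 2 higher, 6 lower and a median of 0.00. The 2 higher were 7.69% of the list, near the 8.08% of all genes, and the 6 lower 23.1%, against 6.75%. Ltb, lymphotoxin beta of resting lymphocytes, had 5733 in knockout cells and 20017 in wild-type cells. Tgfb1 had 4636 in knockout and 1269 in wild type, and Il17a had 374 against a floored wild-type signal, at least 2.64-fold higher. Of 30 chemokine and chemokine receptor genes 5 were higher and 6 lower. Ccl9, a chemokine of myeloid cells, had 3043 in knockout cells, against 209.6 in wild-type cells, and Ccr1, a receptor of monocytes and neutrophils, had 587 against a floored wild-type signal, with its other probe set at 0.00. Inhibitory and costimulatory receptor genes were lower in 8 of 21 and higher in none, with a median of -0.71, with Cd28, given above, lowest at -2.14 and Tox, a nuclear factor of T cell development and exhaustion, at -1.75.

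BCL2 family genes had 3 of 11 higher, 3 lower and a median of 0.00. Bak1, a pro-apoptotic pore former, had 1292 in knockout and 251 in wild type, 5.14-fold higher, and Bcl2 had 454 in knockout and 920.2 in wild type. Genes of the p53 response were lower in 5 of 20 and higher in none, with a median of -0.39. Btg2 was the lowest of them at -1.49, and Bbc3 stood at -1.29. Cdkn1a, the p21 cell cycle inhibitor, was the highest at 0.86, with 292 in knockout cells, against 161 in wild-type cells, near the floor.

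**Figure D3:**
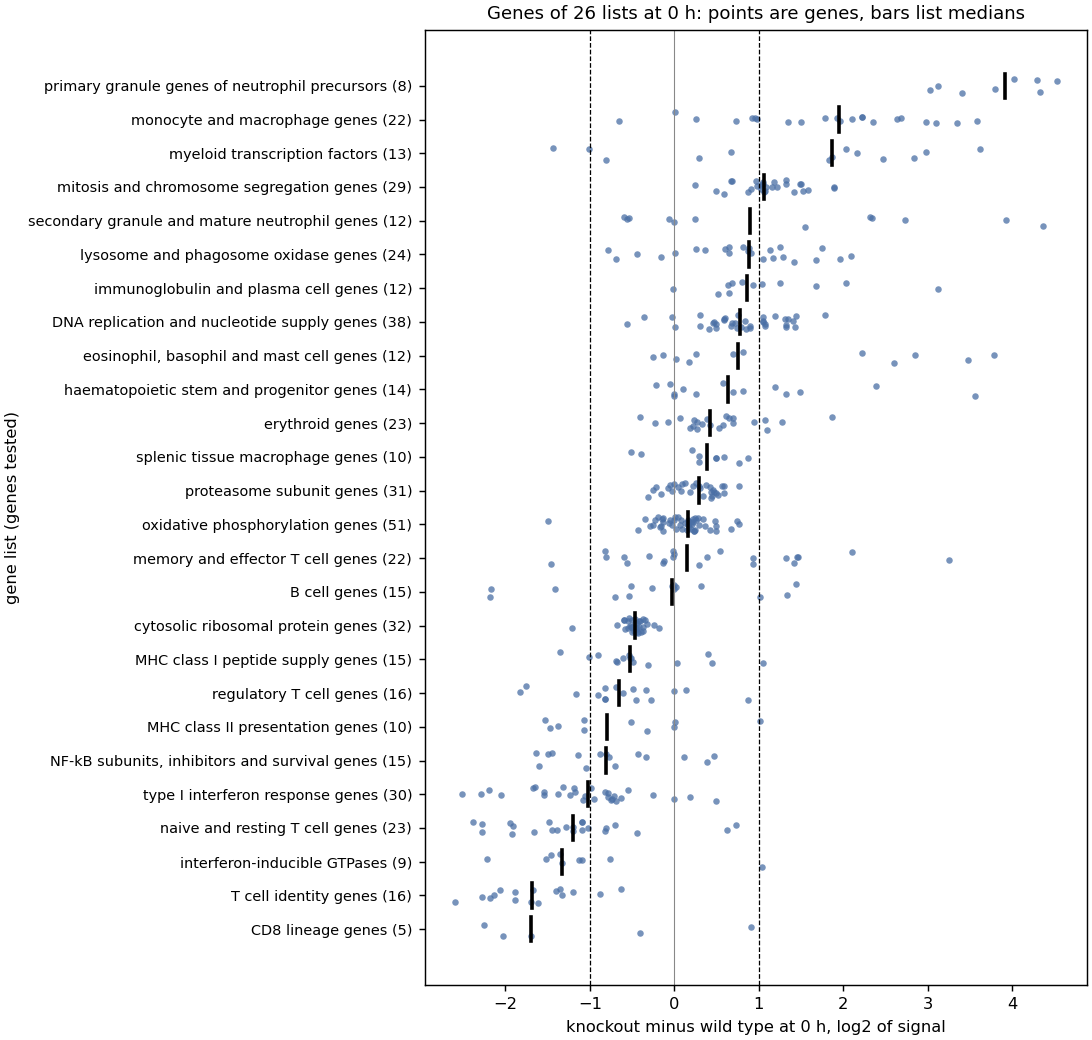
Log2 differences, knockout minus wild type at 0 h, of the tested genes of 26 lists; points are genes, thick bars list medians, dashed lines 2-fold, and numbers in parentheses genes tested. Medians run from 3.91 for primary granule genes to -1.70 for CD8 lineage genes.

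Metabolic and housekeeping lists stayed within 2-fold as medians. Cytosolic ribosomal protein genes were below 0 in 32 of 32, with a range of -1.21 (Rpl12, the 1 at least 2-fold lower) to -0.18 and a median of -0.46, which became -0.10 with hybridisation control scaling and -0.04 with quantile normalisation. Of the 47 genes with a mean signal over 25000, 46 were below 0, and 13 of the 47 were not ribosomal protein genes and had the same median of -0.46, so the brightest probe sets as a class were lower. Ribosome biogenesis genes had a median of 0.31, proteasome subunits 0.29, and oxidative phosphorylation genes 0.16, with 0 of 26, 0 of 31 and 0 of 51 higher. Cox7c, a cytochrome c oxidase subunit, was the 1 lower among the last, at -1.49, while its other probe set gave -0.26. Glycolysis genes were higher in 4 of 18, with a median of 0.28. Pgam1, phosphoglycerate mutase, had 9295 in knockout and 2144 in wild type, and Hk2, an inducible hexokinase, had 1225 in knockout and 308 in wild type. Cholesterol and fatty acid synthesis genes had 0 of 22 past 2-fold and a median of -0.28. Heat shock and chaperonin genes had 1 of 21 lower (4.76%, against 6.75% of all genes). It was Hsph1, with 4004 in knockout cells, against 8599.9 in wild-type cells. Id inhibitors and E proteins had 1 of 6 higher, Id1, and 1 lower, Id3, with a median of -0.12. Of the 7 sex-linked genes listed only Xist was tested, with 11595 in knockout cells and 16762 in wild-type cells, a difference of -0.53. Eif2s3y, Kdm5d, Uty and Usp9y were on the array and did not pass the floor filter.

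The later pairs of arrays, of the same genotypes, show which differences of resting cells recurred after stimulation. Each later array carries the source number of its genotype's 0 h array, so recurrence is no check on samples known to be separate. Of the 683 genes higher at 0 h, 471 (69.0%) were also higher at 4 h, 364 (53.3%) at 8 h and 195 (28.6%) at 24 h. The share of all genes called higher was 11.8%, 10.7% and 9.18% at those times. Of the 571 lower genes, 198 (34.7%) were also lower at 4 h, 170 (29.8%) at 8 h and 35 (6.13%) at 24 h, against 6.56%, 6.66% and 5.06% of all genes. Primary granule genes had medians of at least 4.71, 5.20 and 2.25 at 4, 8 and 24 h, with 1, 2 and 6 of the 8 wild-type signals at the floor. Monocyte genes had medians of at least 3.32, 3.64 and 2.67, with 5, 6 and 12 of the 22 wild-type signals at the floor. T cell identity genes kept -1.70 and -1.56 at 4 and 8 h and stood at -0.29 at 24 h. Interferon response genes had -1.02 at 0 h, against at least 0.05, 1.11 and 1.25 in the later pairs. Other genes were at least 2-fold lower at 0 h and not in the later pairs, among them Plekhg2 (684 in knockout and 3263 in wild type) and Atp8b2 (under the floor in knockout, 828 in wild type). Slfn8 (503 in knockout and 2525 in wild type) was likewise lower at 0 h, and it was higher at 24 h, by 1.20 on the log2 scale.

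**Figure D4:**
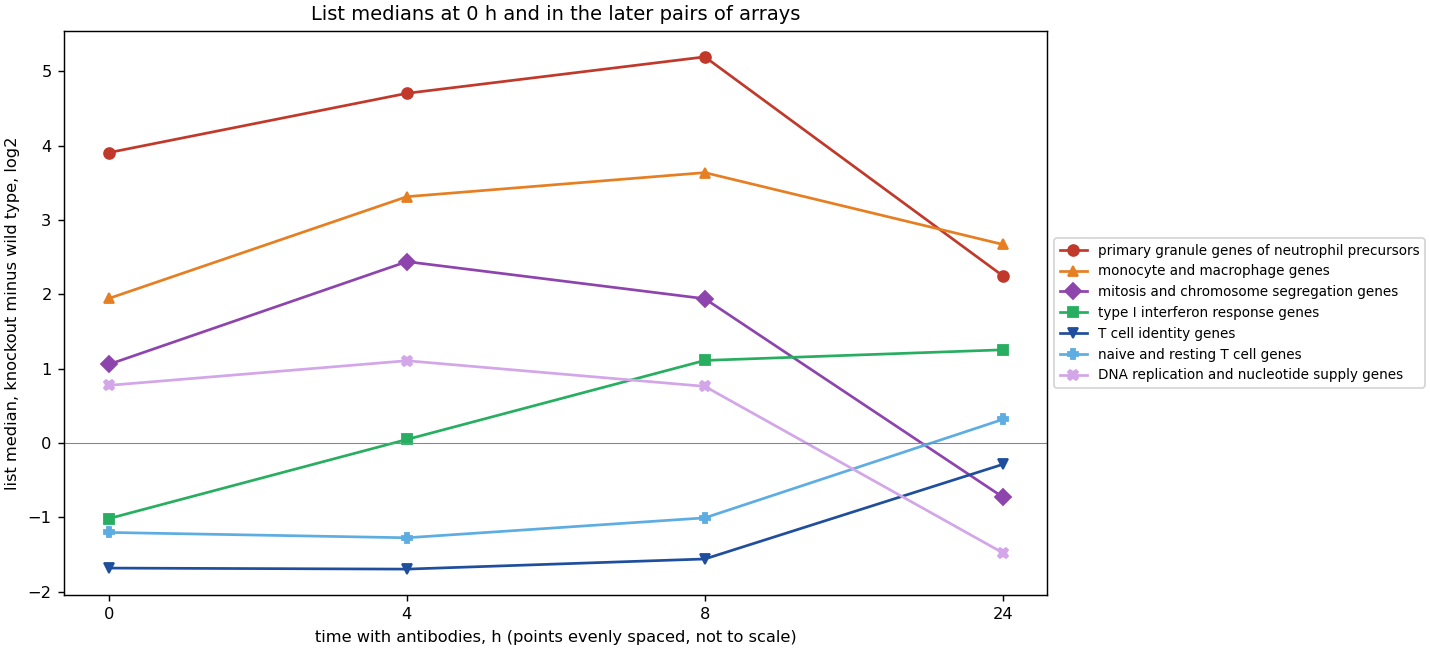
Median log2 difference, knockout minus wild type, of 7 lists at 0 h and in the pairs of arrays after 4, 8 and 24 h with antibodies (points evenly spaced, not to scale). Primary granule genes stay above 2 throughout, and interferon response genes go from -1.02 at 0 h to at least 1.25 at 24 h. Mitosis genes go from 1.06 at 0 h to at least 2.44 and 1.94 at 4 and 8 h, and to -0.73 at 24 h.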

How the data were processed

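The deposited values are signal intensity per probe set from Affymetrix MOE430A_2.0 arrays. Per the submitters' processing notes GCOS 1.4 and MAS5 were used, without saying what each did to the values. Per the labels' protocols TRIzol was used for extraction, and about 1 µg of RNA went into biotinylated cRNA. The 2% trimmed mean was nearly equal on all 8 arrays. All 22690 probe sets were read, 64 of them controls, and 0 per-sample columns were left unused. The floor was the median over the 8 arrays of each array's 40th percentile, log2 7.15, and a probe set was kept if above it on at least 2 arrays. Gene names came from the platform annotation (20380 probe sets with 1 symbol, 691 with several, 1555 with none, and 20351 of the first matched to RefSeq), and for each gene the probe set of highest mean log2 signal was taken. Genes called higher or lower differed at least 2-fold on the log2 scale of the deposited intensity. Arrays were compared 1 against 1, so their number limits the precision.

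Named are Gfi1, the 25 largest differences in each direction, and members of 46 lists (963 genes, 759 tested), except where the text says that genes were looked up after their values were seen. The comparison, the lists and the named members were chosen with earlier results of these data known. The size rule was tested on simulated data. Alternatives covered scaling, floor, filter, threshold and probe set choice. Tables and figures were made with python 3.11.15, numpy 2.4.6, pandas 2.3.3 and matplotlib 3.10.9.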

Additional observations from a re-analysis of the deposited data

Results flagged for a closer look

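For 7 lists the median difference between knockout and wild type had opposite signs at 0 h and at 24 h, each at least 0.5 from 0 on the log2 scale. With 1 array per genotype and time the difference between the times was not tested. Mitosis and chromosome segregation genes had 1.06 at 0 h and -0.73 at 24 h, and DNA replication and nucleotide supply genes had 0.78 and -1.48. At 4 and 8 h the mitosis median was at least 2.44 and 1.94. The replication median was at least 1.11 at 4 h and stood at 0.76 at 8 h, where floored signals lay on both arrays. Type I interferon response genes had -1.02 and at least 1.25, and interferon-inducible GTPases -1.33 and 0.54. NF-kB subunits, inhibitors and survival genes had -0.80 and 0.80, and regulatory T cell genes -0.65 and at least 1.11. Platelet and megakaryocyte genes had -0.70 and at least 0.79, over 7 genes. Their 0 h value was 0.04 with a floor at the 20th percentile, 0.36 with one at the 60th and 0.00 with hybridisation control scaling.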

How the results depend on the processing

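No paired analysis was possible because each genotype has 1 array at 0 h and the labels give no shared replicate numbers, and for the same reason no array could be left out. The counts of probe sets higher and lower, 1126 and 1055 as reported, were within 1.5 times of these with quantile normalisation, median scaling, no filter, or a filter on both 0 h arrays. Hybridisation control scaling, chosen after seeing the data, gave 2227 and 464. A floor at the 20th percentile gave 1786 and 2201, one at the 60th 613 and 596. With log2 of signal plus the floor value, 674 were lower. A 1.5-fold threshold gave 2491 and 2654, a 4-fold one 211 and 78. Add2, an erythroid membrane skeleton gene, turned from 1.28 to -0.64 with the lower floor and to -0.39 with signal plus floor. Of 9 lists with a median of at least 2-fold, 6 remained so with hybridisation control scaling, 8 with the 60th percentile floor, with signal plus floor and with the median over probe sets, and 9 with quantile normalisation, median scaling and the lower floor. With hybridisation control scaling 4 of 46 lists changed sign.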
